A study of Mus musculus with 7 samples.

Results

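The Drosha-independent miRNAs of the mouse hippocampus were examined: 3 mirtrons (mmu-miR-877, mmu-miR-1224 and mmu-miR-1981) and 2 miRNAs whose precursors are known as capped hairpins or are processed without Drosha (mmu-miR-320 and mmu-miR-484). They were chosen by name, as every entry of the deposited comparison tables whose stem is one of these 5, with both arms where both are listed. This gave 8 mature miRNAs, from 5 hairpins, of 757 named miRNAs. Of the 8, 7 passed the minimum of 10 reads on average over the libraries that was set for testing, as did 476 miRNAs in all, and 5 passed a minimum of 100 reads, as did 319 in all.

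Most miRNAs are released in a pair of cuts. The nuclear RNase Drosha, with its partner DGCR8, releases a hairpin from the primary transcript, and Dicer in the cytoplasm then removes the loop to leave a short duplex, one strand of which is loaded into an Argonaute protein. A mirtron is a short intron that is excised by the spliceosome and debranched into a hairpin, so that splicing takes the place of Drosha. A capped hairpin such as pre-miR-320 is made directly by RNA polymerase II, its ends set by transcription start and termination. Both kinds still depend on Dicer. The study asked how protein phosphatase PP1 and learning act on hippocampal miRNAs, including on the precursor step, and miRNAs that skip that step can therefore be read beside Drosha-cleaved ones.

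Small RNAs were sequenced from the hippocampus of C57BL/6 mice aged 3 to 5 months in 7 libraries. Library 1 came from non-trained controls, library 2 from non-trained NIPP1* mice, libraries 3, 4 and 5 from trained controls, and libraries 6 and 7 from trained NIPP1* mice, by the labels. Training was on a object recognition task. NIPP1* is a piece of NIPP1, a protein that inhibits PP1 in the nucleus. It is fused to EGFP and expressed in forebrain neurons only, from a tet operator that is switched on with doxycycline in the diet through an rtTA2 driven by the CaMKIIα promoter. Whole hippocampus also holds glia, vessels and blood, which do not carry the active transgene. The transgene itself cannot be read from miRNA data. The study describes pooled hippocampal samples, and the labels do not tie libraries to animals, so SDs and p-values measure only the spread between these libraries, which may be technical. The labels and the authors' comparison tables disagree on the trained groups. The tables' mean for trained controls was rebuilt from libraries 6 and 7 to a root mean square error of 0.0185% over 319 miRNAs, against 15.6% from libraries 3, 4 and 5, and their mean for trained NIPP1* mice from libraries 3, 4 and 5 to 0.0233%, against 18.2% from libraries 6 and 7. Groups below follow the labels, and the values with the trained groups exchanged are given where the genotypes are compared.

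The mature sequences are shown because their ends can be set against the ends of introns, and their seeds tell them apart. They are written 5′ to 3′ as read from the NCBIM37 (mm9) genome at the deposited positions, with the seed (bases 2 to 8, which pair with targets) in capitals. The first 2 come from hairpins outside protein-coding exons and introns, and the next 3 pairs are the arms of the mirtrons.
mmu-miR-320: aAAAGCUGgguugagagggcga
mmu-miR-484: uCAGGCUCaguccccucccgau
mmu-miR-877: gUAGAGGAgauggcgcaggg
mmu-miR-877*: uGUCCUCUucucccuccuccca
mmu-miR-1224: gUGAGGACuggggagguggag
mmu-miR-1224*: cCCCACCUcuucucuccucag
mmu-miR-1981: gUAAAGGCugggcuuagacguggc
mmu-miR-1981*: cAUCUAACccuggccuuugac
The 3 mirtron 5′ arms begin with GU, the first 2 bases of an intron, as did 7 of the 476 tested miRNAs (1.47%). The miR-1224* sequence ends in CAG, the last bases of a typical intron. The 8 seeds all differ, and no other miRNA in the measured set or in the RefSeq table (GRCm38.p6) shares one of them. Of the 8, 7 matched a RefSeq mature sequence base for base, and miR-320 had no entry.

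The positions of the mirtron hairpins coincided with annotated introns in GENCODE on NCBIM37. The miR-877 hairpin, at chr17:36097675-36097759 on the minus strand, spans an 85 bp intron of Abcf1, an ATP-binding cassette protein that acts in translation initiation, with 0 bp left over at either end. The miR-1224 hairpin, at chr16:20604525-20604609 on the plus strand, spans an 85 bp intron of Vwa5b2 in the same way. The miR-1981 hairpin, at chr1:186646286-186646367 on the minus strand, spans an 82 bp intron of Mosc2, although 1 transcript annotated as a nonsense-mediated decay target places it in an intron of 10169 bp. In all 3, the 5′ arm starts at the first base of the intron. The 3′ arms end 1 base before the last base of the intron for miR-877*, 0 bases before it for miR-1224* and 2 bases before it for miR-1981*.

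The other hairpins lie near start sites on the opposite strand. The miR-320 hairpin (chr14:70843317-70843398, plus strand, 82 bp) is 39 bp from the start site of Polr3d, which encodes a subunit of RNA polymerase III and is read from the minus strand. Its mature arm is the 3′ one and starts 47 bases into the hairpin. The miR-484 hairpin (chr16:14159719-14159785, plus strand, 67 bp) is 352 bp from the start site of 4921513D23Rik, also on the minus strand, and its mature arm starts 4 bases in.

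Levels are reads per 1000000 miRNA reads (RPM), computed from the deposited percentages, and the mature miRNAs are 20 to 24 bases long, so no length scaling was applied. A library held 7285196 to 10018105 miRNA reads, so that 1 read was worth 0.0998 to 0.137 RPM. The summed level of the 8 miRNAs was 911 to 1528 RPM, or 0.0911 to 0.153% of the miRNA reads of a library, and miR-320 gave 53.0% of it.

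miR-320 was the most abundant, at 615.9 ± 136.5 RPM (SD, n = 7) and rank 83 of 756 distinct mature sequences. It stood at 580.4 and 662.0 RPM in libraries 1 and 2, at 554.6, 725.9 and 839.5 RPM in libraries 3, 4 and 5, and at 510.5 and 438.5 RPM in libraries 6 and 7. Its level was highest in libraries 4 and 5 and lowest in the trained NIPP1* libraries, which lay below every trained control library.

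miR-1981, the most abundant mirtron, had a mean of 195.4 ± 33.0 RPM (SD, n = 7; rank 150). Its values were 172.1 and 174.3 RPM in libraries 1 and 2, 174.6, 241.6 and 245.1 RPM in libraries 3, 4 and 5, and 183.4 and 176.4 RPM in libraries 6 and 7. Libraries 4 and 5 stood above the others, which spanned a narrow range. Its passenger arm miR-1981* was at 9.79 and 14.0 RPM in libraries 1 and 2, at 12.8, 11.13 and 12.79 RPM in libraries 3, 4 and 5, and at 8.51 and 11.08 RPM in libraries 6 and 7. The correlation of the 2 arms over the 7 libraries was r = 0.148, as a description.

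miR-484 had the steadiest level, at 180.0 ± 14.7 RPM (SD, n = 7; rank 154). Its values were 149.4 and 187.9 RPM in libraries 1 and 2, 175.8, 185.0 and 193.0 RPM in libraries 3, 4 and 5, and 189.3 and 179.6 RPM in libraries 6 and 7. Only the non-trained control lay apart, below all the others.

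miR-1224, the Vwa5b2 mirtron, varied most, from 44.22 to 136.7 RPM with a mean of 81.4 ± 33.2 RPM (SD, n = 7; rank 194). It was at 78.28 and 69.99 RPM in libraries 1 and 2, at 52.31, 114.8 and 136.7 RPM in libraries 3, 4 and 5, and at 73.57 and 44.22 RPM in libraries 6 and 7. The trained controls therefore held both the highest values and one of the lowest. Its 3′ arm gave 1 read in all, in library 2.

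miR-877 had a mean of 73.0 ± 16.2 RPM (SD, n = 7; rank 200). It was at 68.16 and 76.8 RPM in libraries 1 and 2, at 58.9, 93.38 and 95.8 RPM in libraries 3, 4 and 5, and at 60.81 and 57.1 RPM in libraries 6 and 7. Libraries 4 and 5 were again the highest. miR-877* lay between 4.02 and 5.39 RPM, a range of 33 to 45 reads.

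In order of mean level, miR-320 was above miR-1981 in 7 of 7 libraries with ranges that did not meet. miR-1981 and miR-484 were not separated, miR-1981 being higher in 3 of 7 libraries. Both were above miR-1224 and miR-877 throughout, and these last were not separated either, with miR-1224 higher in 4 of 7. The passenger arms miR-1981* and miR-877* came below, each with a range apart from its neighbours.

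**Figure D1:**
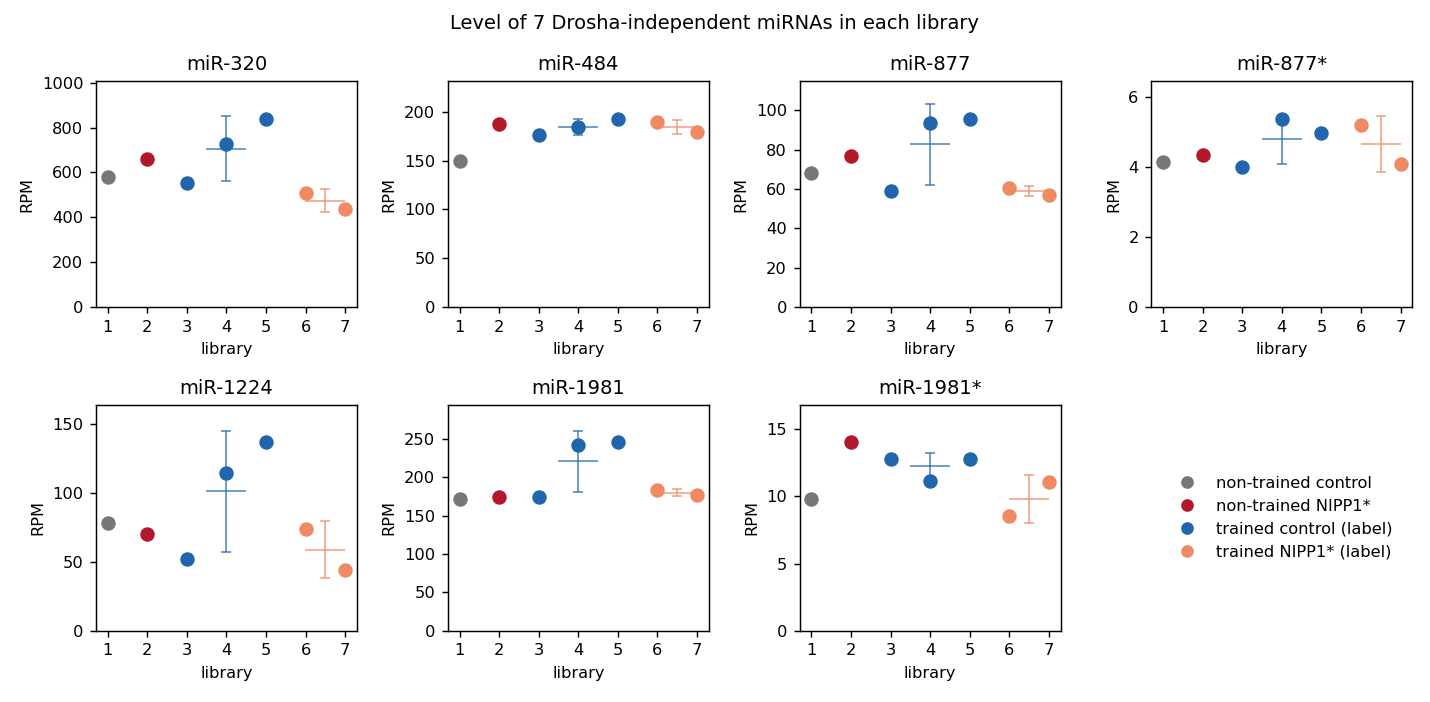
Level in RPM (vertical axes, linear from 0) of 7 Drosha-independent miRNAs in libraries 1 to 7 (horizontal axes), 1 point a library coloured by labelled group; horizontal bars and whiskers give mean ± SD of the trained groups. miR-320, miR-877, miR-1224 and miR-1981 are highest in libraries 4 and 5, whereas miR-484 lies between 149.4 and 193.0 RPM.

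The plot of levels by library shows that 4 of the 5 miRNAs with at least 100 reads had their 2 highest values in libraries 4 and 5, with miR-484 the exception. Over all miRNAs with that many reads, 57 of 319 (17.9%) did so. The SD of log2(RPM + 0.5) over the 7 libraries was 0.57 for miR-1224, larger than for 95.9% of the 319 miRNAs. It was 0.32 for miR-320 (84.6%), 0.31 for miR-877 (83.1%) and 0.23 for miR-1981 (64.6%). For miR-484 it was 0.12, larger than for 16.0% of them, beside a median of 0.19.

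The correlation of log2 levels was taken over all 10 pairs of the 5 members with at least 100 reads. It had a median of 0.812 (0.249 to 0.948), beside a median of 0.0482 over all 50721 pairs of the 319 miRNAs, as a description over 7 libraries in which every pair shares depth and composition. The 4 pairs with miR-484 lay between 0.249 and 0.481 and the 6 others between 0.768 and 0.948, which is the same split as that by highest values in libraries 4 and 5 and no independent support for it. The miRNAs whose pattern was most like that of miR-320 were miR-92b* (r = 0.949) and miR-877 (r = 0.948). For miR-877 they were miR-29b-2* (0.976) and miR-125a-3p (0.972), and for miR-1224 miR-3099 (0.979) and miR-92b* (0.954). For miR-1981 they were let-7e (0.981) and miR-139-3p (0.97). let-7e, a member of the large let-7 family, was at 11890 and 11920 RPM in libraries 4 and 5 and between 8006 and 8706 RPM in the others. For miR-484 they were miR-191 (0.828) and miR-26a (0.788).

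Base composition moved with the same libraries. The Drosha-independent miRNAs were rich in G and C, at 52.4 to 66.7% of their bases, beside a median of 47.8% over the 476 tested miRNAs (quartiles 40.9 and 57.1%). Over the 314 other miRNAs with at least 100 reads, the share of G and C correlated with a library's deviation from the mean of the 7 libraries at r = 0.421 in library 4, 0.308 in library 5 and 0.130 in library 2, and at -0.163 to -0.305 in the remaining 4, as a description across miRNAs. Libraries 4 and 5 were the 2 highest for 1.70% of the miRNAs under 40% G and C, 9.74% of those from 40 to under 50%, 25.8% of those from 50 to under 60%, and 34.7% of those at 60% or more.

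Libraries 4 and 5 were singled out after the high values of these members were seen, so their deviations there are a description and no separate result. Except for miR-484, the members with at least 100 reads lay further out in libraries 4 and 5 than the median of others of like composition. The spread within a class is not given by these medians. miRNAs at 60% G and C or more had a median deviation of 0.20 on the log2 scale in library 4 and 0.065 in library 5. miR-1224 deviated by 0.59 and 0.84 there, and miR-877 by 0.38 and 0.42. For miRNAs from 50 to under 60%, the medians were 0.045 and -0.002, whereas miR-320 deviated by 0.27 and 0.48 and miR-1981 by 0.32 and 0.34. miR-484, at 63.6% G and C, deviated by 0.044 and 0.10. The part of base composition in these differences was not tested.

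**Figure D2:**
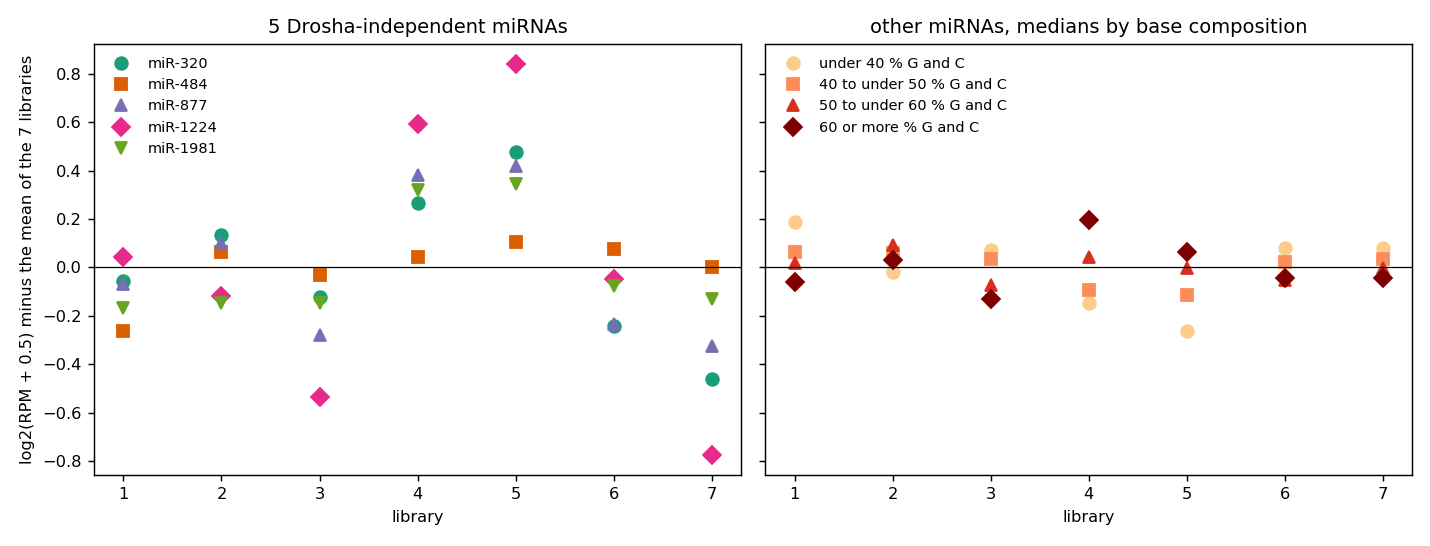
Deviation of log2(RPM + 0.5) from the mean of the 7 libraries (vertical axis) in each library (horizontal axis), for 5 Drosha-independent miRNAs (left) and as medians of 314 other miRNAs in 4 classes of base composition (right). The members other than miR-484 lie between 0.27 and 0.84 in libraries 4 and 5, and the class richest in G and C has medians of 0.20 and 0.065 there.

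Marker miRNAs of other cells were summed in each library, and several sums rested on 1 abundant miRNA. The summed level of miR-451 and miR-144, which mark red blood cells, was 61.9 and 62.3 RPM in libraries 4 and 5 and 85.0 to 250.9 RPM in the others. The oligodendrocyte pair miR-219-5p and miR-338-3p summed to 2766 and 2970 RPM there and to 3299 to 4808 RPM elsewhere, and 4 microglial and leukocyte miRNAs to 462 and 471 RPM against 567 to 653 RPM. Within these lists, miR-451, miR-338-3p and miR-142-3p were lowest in libraries 4 and 5. miR-144, lowest in library 2 at 3.72 RPM, miR-142-5p, at 45.38 and 41.95 RPM, miR-219-5p, at 9.46 and 11.6 RPM, miR-223, at 50.8 and 52.4 RPM, and miR-155, at 9.10 and 6.14 RPM, did not have their 2 lowest values there. The neuronal and brain miRNAs miR-124, miR-9 and miR-128 summed to 181433 and 183077 RPM, below 190930 to 207845 RPM in the others. That sum followed miR-9, while miR-128, at 62300 and 71940 RPM, was highest in library 5. The vessel miRNAs miR-126-3p, miR-143 and miR-145 summed to 16946 and 17619 RPM, above 13812 to 16315 RPM in the others, a sum that followed miR-143. miR-145 was also highest there, whereas miR-126-3p, at 4252 and 4300 RPM, was lowest there. The choroid plexus pair miR-204 and miR-211 reached 493 and 400 RPM there and 481 to 1154 RPM elsewhere, with miR-211 at or near 0 throughout. Of 5 miRNAs of other organs 4 were found, and they summed to 492 and 508 RPM in libraries 4 and 5 against 611 to 654 RPM. miR-192 and miR-194 carried that sum, and miR-206, at 13.65 and 12.02 RPM, was not lowest there. The part of cell composition in the levels of the Drosha-independent miRNAs was not tested, and in whole tissue fewer cells of a type and less RNA per cell cannot be told apart.

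Training was compared first among controls. Every one of the 7 tested members had a positive log2 fold change in trained controls against the non-trained control, from 0.18 to 0.34, and none passed the test. The limma model called 0 of 476 miRNAs (0%) at an adjusted p under 0.05, with 28 (5.88%) under 0.05 unadjusted, of which no member was one. edgeR's quasi-likelihood test called 0 and DESeq2 called 1. The median over the members was 0.26, beside -0.090 over all 476, of which 40.5% were positive. miR-1981 had the highest value, 0.34 ± 0.24 (SE; adjusted p = 0.666), followed by miR-1981* at 0.31 ± 0.25 and miR-484 at 0.30 ± 0.17. miR-320 was at 0.26 ± 0.25, miR-1224 at 0.26 ± 0.54, miR-877 at 0.24 ± 0.30 and miR-877* at 0.18 ± 0.29.

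Leaving out 1 trained control in turn, miR-320 ranged from 0.13 to 0.43 and miR-877 from 0.12 to 0.47. miR-877* ranged from 0.096 to 0.29 and miR-1224 from -0.014 to 0.67. Each of these was highest without library 3 and lowest without library 4 or 5, as were miR-484 and miR-1981. miR-1981* went the other way, from 0.27 without library 3 to 0.37 without library 4. All 7 members share 1 non-trained control library. Without libraries 4 and 5, 4 of them turned negative, at -0.066 for miR-320, -0.21 for miR-877, -0.044 for miR-877* and -0.58 for miR-1224. miR-1981 then fell to 0.021, while miR-484 stood at 0.23 and miR-1981* at 0.37. With the trained groups exchanged, 4 were negative as well, at -0.29 for miR-320, -0.21 for miR-877, -0.45 for miR-1224 and -0.011 for miR-1981*, and miR-1981 fell to 0.064. Without library 3, on the other hand, the number of miRNAs under an unadjusted p of 0.05 rose from 28 to 108, with the lowest adjusted p of a member at 0.105.

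The genotypes were compared among trained mice. No member was higher in trained NIPP1* mice than in trained controls by the labels, and none passed the test. miR-320 was at 474.5 ± 50.9 RPM (SD, n = 2) against 706.7 ± 143.4 RPM (SD, n = 3), a log2 fold change of -0.56 ± 0.20 (SE; limma adjusted p = 0.639). It ranked 20 of 476 by size and was the only member with an unadjusted p under 0.05, at 0.0252, among 34 miRNAs (7.14%) and beside 0 of 476 (0%) after adjustment. edgeR's quasi-likelihood test called 0 of them and DESeq2 called 1.

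Of the mirtrons, miR-1224 had the largest difference and the largest error. It was at 58.9 ± 20.8 RPM (SD, n = 2) against 101.3 ± 43.8 RPM (SD, n = 3), a log2 fold change of -0.71 ± 0.43 (SE; adjusted p = 0.662), and the groups overlapped. miR-877 gave -0.45 ± 0.24 and miR-1981 -0.28 ± 0.19, also with overlap. miR-1981* gave -0.32 ± 0.20, its groups touching but apart at 11.08 and 11.13 RPM. Groups were apart in this direction for 2 of the 7 members, miR-320 and miR-1981*, and for 37 of 476 miRNAs (7.77%). The steady miRNAs were miR-484, at 184.5 ± 6.9 RPM against 184.6 ± 8.6 RPM, and miR-877*, with a log2 fold change of -0.04 ± 0.23. The median over the members was -0.32, beside 0.037 over all 476.

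These values turned on single libraries. Leaving out each library in turn, miR-1224 ranged from -1.13 without library 3 to -0.35 without library 7, and miR-1981* from -0.50 without library 7 to -0.13 without library 6. Without library 3, miR-320 stood at -0.72 and miR-877 at -0.68 (adjusted p = 0.0840 for both by limma). miR-1981 then stood at -0.435 (limma adjusted p = 0.101), and the number of miRNAs under an unadjusted p of 0.05 rose from 34 to 113. Without libraries 4 and 5, which leaves 1 trained control, miR-320 stood at -0.23, miR-877 at 0.0006 and miR-1224 at 0.12. With the trained groups exchanged, the same differences have the opposite sign, with miR-320 at 0.56.

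**Figure D3:**
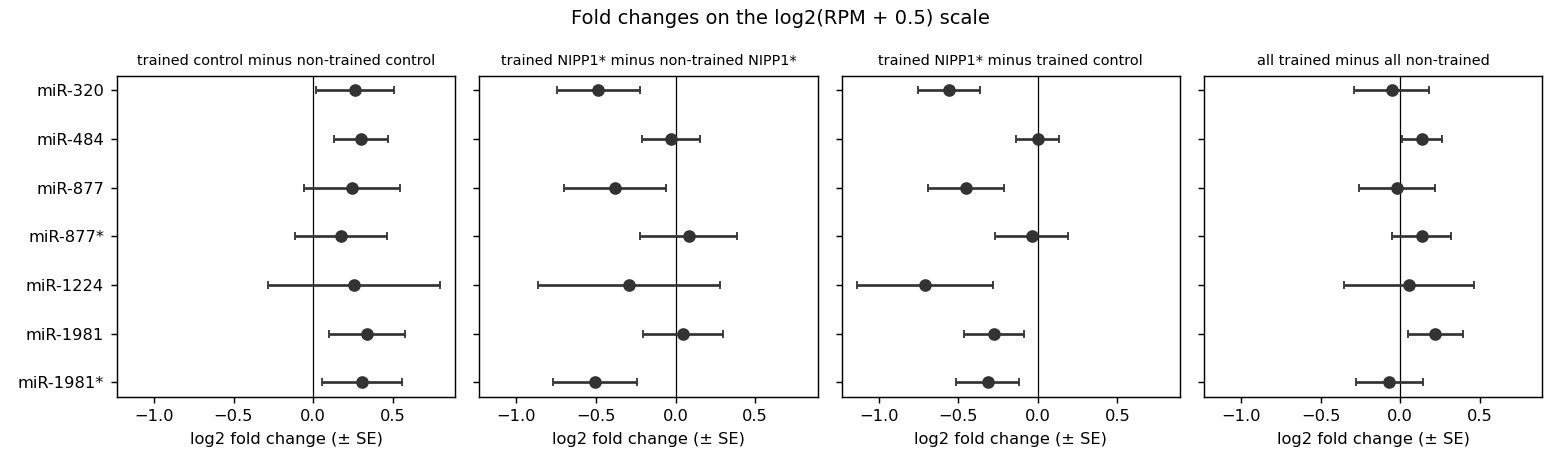
Log2 fold change ± SE (horizontal axes, log2(RPM + 0.5) scale) of 7 Drosha-independent miRNAs (rows) in 4 comparisons, by the labels. In trained controls against the non-trained control the 7 values lie between 0.18 and 0.34, in trained NIPP1* mice against trained controls between -0.71 and -0.0006, and none passes an adjusted p of 0.05.

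Within NIPP1* mice, trained libraries were compared with the 1 non-trained library. miR-1981* was at -0.51 ± 0.27 on the log2 scale, miR-320 at -0.48 ± 0.26 and miR-877 at -0.38 ± 0.32 (SE), whereas miR-1224 was at -0.29 ± 0.57, miR-484 at -0.03 ± 0.18, miR-1981 at 0.05 ± 0.25 and miR-877* at 0.08 ± 0.31. Adjusted p by limma was 0.973 or more for each, with 0 of 476 miRNAs (0%) called and 21 (4.41%) under 0.05 unadjusted. edgeR called 0 and DESeq2 called 2. This comparison shares the trained NIPP1* libraries with the preceding one. With the trained groups exchanged, miR-320 and miR-877 stood at 0.073, miR-1224 at 0.42, miR-1981 at 0.32 and miR-1981* at -0.19. Leaving out 1 trained library moved several values. Without library 6, miR-1981* stood at -0.32, miR-1224 at -0.66 and miR-877* at -0.077, and without library 7 they stood at -0.69, 0.072 and 0.24.

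The difference between the genotypes in the effect of training was tested as an interaction. By the labels it was negative for all 7 members, from -0.81 ± 0.37 for miR-1981* and -0.75 ± 0.36 for miR-320 to -0.09 ± 0.42 for miR-877* (SE), beside 52.9% positive over all miRNAs, and no member passed, with adjusted p of 0.696 or more by limma. Of all 476 miRNAs, 0 (0%) were called and 37 (7.77%) had an unadjusted p under 0.05. edgeR called 0 and DESeq2 called 2. The sign rested on the assignment of the trained libraries. With the trained groups exchanged, 4 of the 7 were positive, at 0.37 for miR-320, 0.28 for miR-877, 0.87 for miR-1224 and 0.26 for miR-1981, and without libraries 4 and 5 miR-877*, miR-1224 and miR-1981 were positive, at 0.13, 0.28 and 0.025.

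The trained libraries were also compared with the non-trained ones without regard to genotype, a split that does not depend on how the trained libraries are assigned. miR-1981 had the highest log2 fold change, 0.22 ± 0.17 (SE; limma adjusted p = 0.845), its 5 trained values lying just above the 2 non-trained ones, as for 16 of 476 miRNAs (3.36%). miR-484 was at 0.14 ± 0.13, miR-877* at 0.13 ± 0.18, miR-1224 at 0.05 ± 0.41, miR-877 at -0.02 ± 0.24, miR-320 at -0.05 ± 0.24 and miR-1981* at -0.07 ± 0.21. Adjusted p was 0.845 to 0.990, 0 of 476 miRNAs (0%) were called, and 26 (5.46%) had an unadjusted p under 0.05. edgeR called 0 and DESeq2 called 1. The sign for miR-320 and miR-877 flipped with TMM scaling, to 0.009 and 0.04. Without libraries 4 and 5, miR-320 stood at -0.31, miR-877 at -0.29, miR-1224 at -0.41 and miR-1981 at 0.04. Leaving out 1 library in turn, the values of 5 members crossed 0, from -0.027 to 0.30 for miR-484, from -0.15 to 0.25 for miR-1224, from -0.32 to 0.18 for miR-1981*, from -0.18 to 0.056 for miR-320 and from -0.13 to 0.063 for miR-877.

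The genotype was compared without training in 1 library each. This was not tested across libraries, and the intervals cover counting error only. miR-484 had 1517 reads in the NIPP1* library and 1328 in the control, a log2 ratio of 0.33 per total reads (95% exact conditional interval 0.22 to 0.44). miR-1981* had 113 against 87 reads and the highest ratio of the 7 members tested elsewhere, 0.52 (0.10 to 0.94). It ranked 5 of the 322 miRNAs with at least 100 reads on average in these libraries. It stood right at that minimum and had the widest interval of the ranked members. miR-320, with 5344 against 5160 reads, was at 0.19 (0.13 to 0.25), and miR-877, with 620 against 606, at 0.17 (0.0084 to 0.34). miR-1981 was at 0.02 (-0.087 to 0.12), miR-877* at 0.06 (-0.65 to 0.77) and miR-1224 at -0.16 (-0.32 to 0.00063). Of the 6 members among these 322 miRNAs, 0 passed a log2 ratio of 1, as 3 of 322 (0.932%) did. miR-877* had too few reads for that count, and miR-1224*, with 1 read against 0, gives no ratio.

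The share of the 3′ arm in a mirtron hairpin is read within a library, since both arms come from the same precursor. miR-1981* made up 671 of 12077 reads of its hairpin over all libraries, or 5.56% (95% Clopper-Pearson interval 5.15 to 5.98%). By library it was 5.38, 7.43, 6.83, 4.41, 4.96, 4.43 and 5.91% in libraries 1 to 7. The lowest share, in library 4 (3.57 to 5.37%), and the highest, in library 2 (6.17 to 8.87%), had intervals that did not meet. Trained controls ranged from 4.41 to 6.83%. miR-877* made up 268 of 4521 reads, or 5.93% (5.26 to 6.66%), with 4.95 to 7.90% by library and intervals that all overlapped. miR-1224* made up 1 of 4698 reads, or 0.0213% (0.00054 to 0.119%), and the 6 libraries with 0 reads allow shares of up to 0.281 to 0.699% at 3 reads of the total, or 0.344 to 0.856% by the upper Clopper-Pearson limit. All 3 mirtrons were thus read mainly from the arm at the 5′ end of the intron, and miR-1224 most one-sidedly, with an interval below those of the other two.

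**Figure D4:**
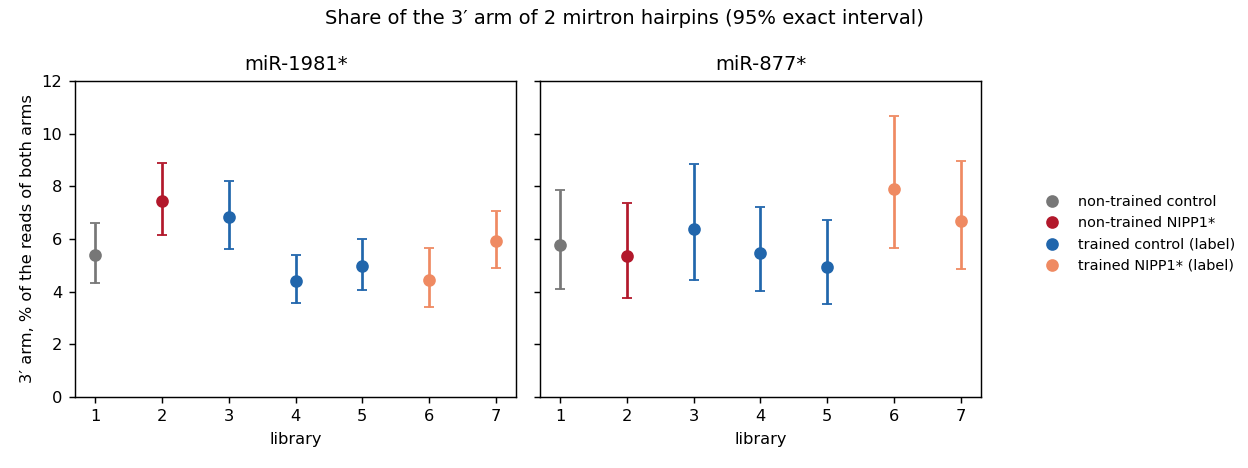
Share of the 3′ arm in the reads of both arms (vertical axis, %) in libraries 1 to 7 (horizontal axis) for the hairpins of miR-1981 (left) and miR-877 (right), with 95% exact intervals that cover counting error only. miR-1981* ranges from 4.41 to 7.43% and miR-877* from 4.95 to 7.90%.

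Other miRNAs reported as mirtrons or as products of small nucleolar RNAs were read beside them. miR-702, another mirtron, was at 0.62 to 1.80 RPM, too low for testing. miR-1839-5p, from a small nucleolar RNA, was far above all members at 1746 to 1945 RPM. Its 2 lowest values were in libraries 4 and 5, at 1850 and 1746 RPM. miR-664* was at 46.6 to 72.3 RPM, with its 2 highest values in libraries 4 and 5, as for the 4 members above. miR-664 lay at 8.10 to 12.5 RPM and miR-1839-3p at 5.88 to 9.78 RPM. None of the 4 tested passed in any comparison. miR-1291 was not analysed here.

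Among the Drosha-cleaved miRNAs of the study's processing assays, miR-183 and miR-182 had a wider fold range between libraries than any tested member. miR-183 was at 11.02 and 117.9 RPM in libraries 1 and 2, at 24.88, 114.2 and 13.05 RPM in libraries 3, 4 and 5, and at 79.61 and 12.98 RPM in libraries 6 and 7. miR-182, from the same cluster, ranged from 11.18 to 133.2 RPM over the libraries, and miR-10b from 9.10 to 22.4 RPM. Library 2 held the highest miR-183 value and library 4 the next. The log2 ratios of library 2 to library 1 lay between -0.16 and 0.52 for the 7 tested Drosha-independent miRNAs. Small ratios were common to nearly all miRNAs, since only 3 of 322 (0.932%) passed a log2 ratio of 1 in either direction. miR-10b was at 14.28 and 14.49 RPM in libraries 1 and 2.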

How the data were processed

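Per the labels and methods, the authors sequenced small RNAs, processed reads with CASAVA 1.7.0, Bowtie and bedtools (submitters' processing notes) and deposited, for each library, the percent of miRNA reads at 806 mature loci on NCBIM37. The authors also deposited comparison tables of normalised read signal. Their fold change and p-value columns were not used, nor were 2 columns of values per library. Percentages were multiplied by 10000 to give RPM, and loci of the same mature sequence were averaged, leaving 756. Read numbers were recovered from the steps of low values, of which 96.0 to 98.8% fell within 0.15 of a whole read. Names were joined to loci through the hairpin annotation and reads of the non-trained libraries, for 637 of 706 names with reads. Every mature sequence left without a name was at 3.2 RPM or less.

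Differences were tested with limma 3.58.1 (R 4.3.3, trend) on log2(RPM + 0.5) over miRNAs averaging 10 or more reads, two-sided, with Benjamini-Hochberg adjustment over 476, in a model of the 4 groups or of 5 trained against 2 non-trained libraries. The 0.5 RPM added before taking log2 understates changes of low miRNAs. edgeR 4.0.16 and DESeq2 1.42.0 on recovered reads, other scalings, pseudocounts, filters and left-out libraries were alternatives. Tested on simulated data, where 200 among 476 miRNAs were given a log2 difference of 2, the steps recovered 89.0 to 99.5% of these by comparison. The largest member value in the tested comparisons was -0.81, so this recovery does not tell how often changes of the sizes seen here would be called. Named miRNAs were all members, the 2 most alike in pattern to each (100 or more reads on average), sharers of a seed, the processing-assay miRNAs and other reported mirtrons or small nucleolar RNA products. miR-664* was named after its values were seen. The members and lists were chosen with earlier results of these data known.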

Additional observations from a re-analysis of the deposited data

How the results depend on the processing

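Over 73 counts of calls under the alternatives of the 5 tested comparisons, 68 stayed at 0 and the other 5 came from DESeq2 on recovered reads, which called 1, 1, 2, 1 and 2 miRNAs in the comparisons of trained with non-trained controls, trained NIPP1* with trained controls, trained with non-trained NIPP1*, trained with non-trained in all, and the interaction. No member was called under any of them, the lowest adjusted p being 0.0840. In the non-trained libraries, 14 of 482 miRNAs passed a log2 ratio of 1 with a minimum of 10 reads, against 3 of 322. Of 515 log2 fold changes of members under an alternative, 449 kept their direction and 66 changed sign, none of them a called value; their causes were not tested.

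With the trained groups exchanged, trained against non-trained controls gave -0.29 for miR-320, -0.21 for miR-877, -0.45 for miR-1224 and -0.011 for miR-1981*. Trained NIPP1* mice against trained controls gave 0.56 for miR-320, 0.0006 for miR-484, 0.45 for miR-877, 0.040 for miR-877*, 0.71 for miR-1224, 0.28 for miR-1981 and 0.32 for miR-1981*, by construction the opposite of the labelled values. Trained against non-trained NIPP1* mice gave 0.073 for miR-320 and for miR-877 and 0.42 for miR-1224. The interaction gave 0.37 for miR-320, 0.28 for miR-877, 0.87 for miR-1224 and 0.26 for miR-1981. Without libraries 4 and 5, an alternative chosen after seeing the data, which leaves 1 trained control assumed to vary like the other groups, the first comparison gave -0.066 for miR-320, -0.21 for miR-877, -0.044 for miR-877* and -0.58 for miR-1224. The genotype comparison then gave 0.069 for miR-484, 0.0006 for miR-877, 0.18 for miR-877*, 0.12 for miR-1224 and 0.043 for miR-1981, and all trained against all non-trained -0.41 for miR-1224. The interaction gave 0.13 for miR-877*, 0.28 for miR-1224 and 0.025 for miR-1981.

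In the comparison of all trained with all non-trained libraries, miR-320 and miR-877 stood at 0.0092 and 0.041 with TMM scaling, 0.018 and 0.049 with DESeq2 size factors, 0.056 and 0.086 with edgeR, and 0.064 and 0.094 with DESeq2, and miR-1981* at 0.001 with the size factors and 0.0001 with DESeq2. miR-484 in trained against non-trained NIPP1* mice stood at 0.013 with the size factors and with DESeq2. Leaving out each library in turn, trained against non-trained controls ranged from -0.014 to 0.67 for miR-1224. The genotype comparison ranged from -0.039 to 0.037 for miR-484 and from -0.20 to 0.12 for miR-877*. Trained against non-trained NIPP1* mice ranged from -0.065 to 0.011 for miR-484, from -0.077 to 0.24 for miR-877* and from -0.66 to 0.072 for miR-1224. The interaction ranged from -0.25 to 0.064 for miR-877*. All trained against all non-trained ranged from -0.18 to 0.056 for miR-320, from -0.027 to 0.30 for miR-484, from -0.13 to 0.063 for miR-877, from -0.15 to 0.25 for miR-1224 and from -0.32 to 0.18 for miR-1981*.

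Each non-trained group is 1 library, so the spread of 3 comparisons comes from the trained libraries, and miR-877* and miR-1981* rest on few reads. No paired analysis was possible because the labels number no replicates within a group, and the numbers used here only name libraries in accession order.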

Other observations

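Of the 21 pairs of libraries, libraries 4 and 5 were the 2 highest for the most miRNAs, 57 of the 319 with at least 100 reads. Libraries 6 and 7 came next with 29, and libraries 5 and 7 last with 1. Of the 5 Drosha-independent miRNAs with that many reads, miR-484 was the 1 outside the first pair, with its highest values in libraries 5 and 6.

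The arms of the miR-877 hairpin were more alike across the libraries (r = 0.614 over 7 libraries, a description) than those of the miR-1981 hairpin (r = 0.148). miR-877* rests on 33 to 45 reads a library and miR-1981* on 62 to 113.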
